A study of Mus musculus with 27 samples.

Results

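Colon RNA of Il10 knockout mice in conventional housing was compared with that of Il10 knockout mice in specific pathogen free (SPF) housing at 12 weeks of age. The comparison used 6 arrays of the 27 in the series, 3 for each housing, and covered the 18193 genes that a probe set with a single gene symbol could name. Each gene was read by the one of its probe sets with the highest mean over all 27 arrays, so that no measured difference entered the choice. Both groups carry IL10-/- in full-thickness colon, and they differ in housing only as far as the labels say. The other arrays hold the same kinds of mice at 7 and 9 weeks and conventionally housed wild types at all 3 ages, again with 3 arrays a group. The conventional knockouts bear the short label CC, read by elimination because the other labels name SPF and WT. The authors picked the 3 replicates of a group by colon length and colonic damage, so a group does not show the spread of its colony. No SPF wild types are among these samples. The sources used here give neither the strain nor the knockout allele, and whether animals were pooled is not stated in them.

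Il10 encodes a cytokine by which regulatory T cells and macrophages restrain immune responses, and mice without it can develop colitis driven by gut microbes. In such colitis, interleukin 12, interleukin 23 and interferon gamma are known to act on macrophages and epithelium, and interleukin 1, interleukin 6 and interleukin 17 to draw in neutrophils and set off acute phase genes. SPF housing keeps out a defined list of pathogens but not the commensal flora. A full-thickness sample contains mucosa, lymphoid follicles, muscle and nerve, and in such bulk tissue fewer cells of a type and less RNA per cell cannot be told apart.

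At 12 weeks inflammatory transcripts were at higher levels in the SPF than in the conventional knockouts. Most measured neutrophil, macrophage, interferon gamma, cytokine, matrix proteinase and cell cycle genes were called (defined below) higher in SPF housing when all arrays were fitted. Without SPF replicate 3 such calls were 10 of 19 neutrophil, 11 of 23 macrophage and 19 of 27 interferon gamma genes. They were then 8 of 22 cytokine, 8 of 17 matrix breakdown and 11 of 27 cell cycle genes, and 10 of 22 cytokine genes without replicate 1. With all arrays fitted, genes of absorptive, goblet and endocrine epithelium, fatty acid oxidation and smooth muscle were mostly higher in conventional housing, with smaller counts without SPF replicate 1 or 3 in most of these lists. Differences are given as log2 units, conventional minus SPF, so a negative value means a higher level in the SPF knockouts, and 1 unit is a 2-fold difference. Each is followed by its standard error from 1 limma model of all 27 arrays, with 3 arrays a group. A gene was called at an adjusted p under 0.05 (limma's moderated test, Benjamini-Hochberg over all genes), and "lower" and "higher" below refer to the conventional knockouts. Of the 18193 genes, 4480 were called (24.6%), 2014 of them higher (11.1%) and 2466 lower (13.6%). At least a 2-fold difference was seen in 938 of them, 441 higher and 497 lower. The median difference of all genes was 0.0065. All 3 arrays of one housing lay beyond all 3 of the other in 5664 genes (31.1%), among them 3516 of the called genes.

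The count of called genes rests on the spread that limma shares over the 9 groups. With only the 6 arrays compared, 20 genes were called, and with the 9 arrays of 12-week mice, 586. The count was 3505, 2922 and 3243 without conventional replicate 1, 2 or 3. Without SPF replicate 1, 2 or 3 it was 2176, 6246 and 1357. The median within-group SD of a gene was 0.183 among the SPF knockouts and 0.124 among the conventional ones, and its 90th percentile 0.513 and 0.263. Standard errors and p-values below use the same shared spread. They can therefore be too small for genes in which the SPF arrays lie far apart, such as S100a8, which was not called with only the 6 arrays. Of the colon markers checked, all but Aqp8 stood above 6.17, the median gene level of the 6 arrays compared, in all 27 arrays. The carbonic anhydrase Car1 was at least 11.18, the mucin Muc2 at least 12.50 and the keratin Krt20 at least 11.75. Smooth muscle actin Acta2 was at least 11.81, the chloride exchanger Slc26a3 at least 10.10 and the myosin Myh11 at least 9.76. The water channel Aqp8 went down to 5.47, in 1 of the 6 arrays compared. Il10 itself read 4.80, 5.20 and 4.94 in the conventional and 7.05, 5.33 and 7.09 in the SPF knockouts, a difference of -1.51 ± 0.29 (adjusted p = 0.00227), while 12-week wild types averaged 3.72. Since both groups are knockouts and the position of the probe relative to the deleted part is not given, this value checks nothing about the genotype.

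SPF replicate 2 stood apart from its group. Its Spearman correlation with the conventional arrays was 0.987 to 0.989, against 0.978 with SPF replicate 1 and 0.974 with SPF replicate 3, which correlated with each other at 0.985. Of the 4480 called genes, SPF replicate 2 was the SPF array nearest to the conventional mean in 4091 (91.3%). It lay a median of 41.2% of the way from the conventional to the SPF mean, with quartiles of 25.4% and 60.8%. In 3552 of the called genes it was still beyond all 3 conventional arrays, and in 885 it lay within their range. The members of 46 lists of pathway genes and cell markers are described next, with counts without each SPF array in brackets for most of them. All list counts stand beside 13.6% lower and 11.1% higher among all genes, and none was tested against these shares.

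**Figure D1:**
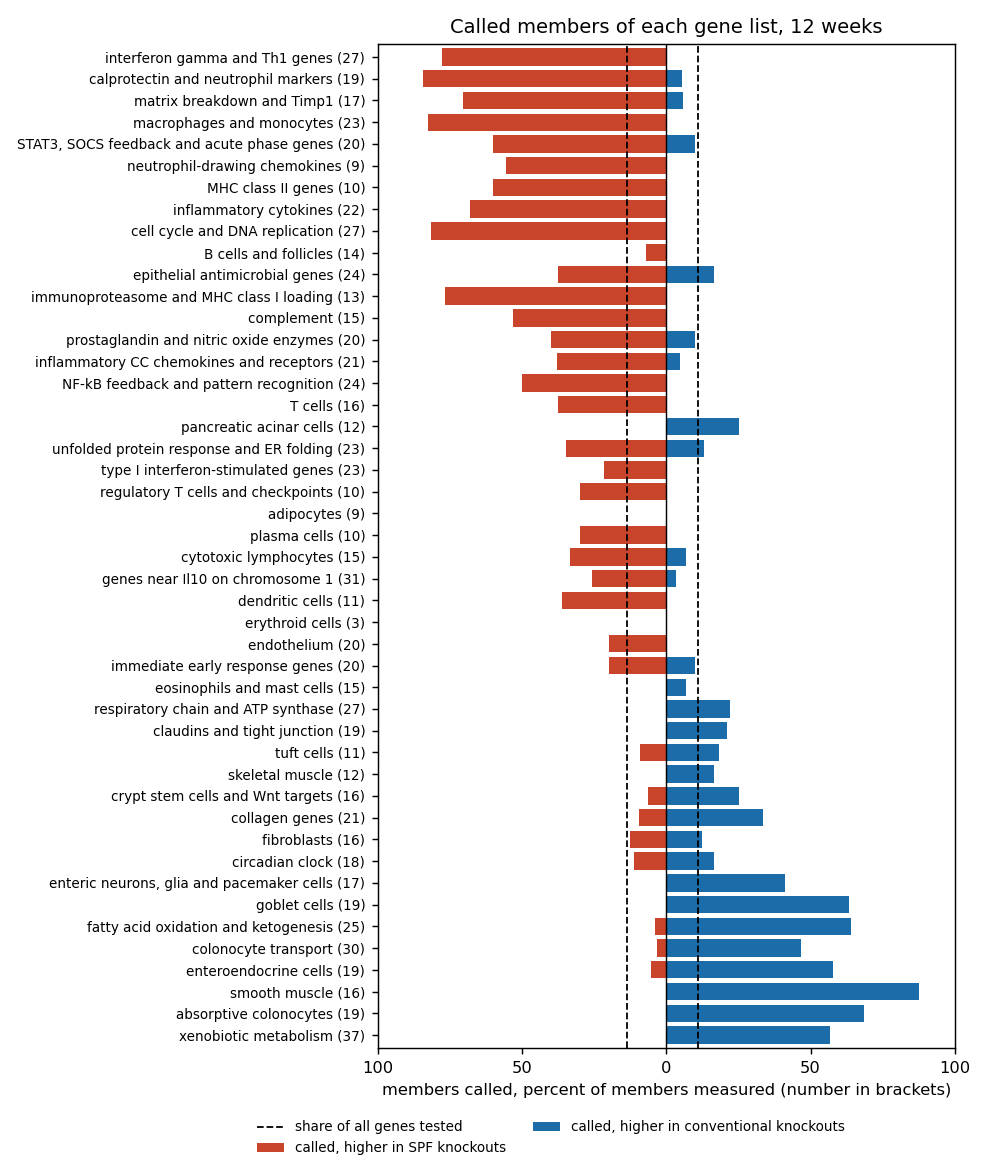
Called members of the 46 gene lists as a percent of the members measured (number in brackets), to the left for genes higher in SPF knockouts and to the right for genes higher in conventional knockouts, 3 arrays a group, ordered by the median difference. The dashed lines are the shares of all 18193 genes called, 13.6% and 11.1%. Most immune lists lie to the left and the epithelial, muscle and metabolic lists to the right.

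The 10 largest differences towards SPF housing, among called genes whose arrays did not overlap, were in S100a8, S100a9, Cxcl5, Lrg1, Sprr2h, Lcn2, Cxcl2, Hp, Cxcl9 and Clca4b. S100a8 and S100a9, the subunits of calprotectin, the protein most abundant in the cytosol of neutrophils, led them. S100a8 (chromosome 3) read 3.43, 3.56 and 3.46 in the conventional and 12.06, 7.41 and 13.34 in the SPF knockouts. The conventional arrays were all near the floor, 2 of the SPF arrays were near the top of the scale, and SPF replicate 2 lay between. The difference was -7.45 ± 1.12 (adjusted p = 0.00109). The files give no detection calls, so differences from levels as low as these, here and for Ifng, S100a9, Cxcl5 and Fpr2, may understate the change and are given with no fold. S100a9 read 3.78, 3.85 and 3.68 in the conventional and 11.97, 6.30 and 13.01 in the SPF knockouts, with the same order of arrays and a difference of -6.66 ± 1.18 (adjusted p = 0.00192).

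**Figure D2:**
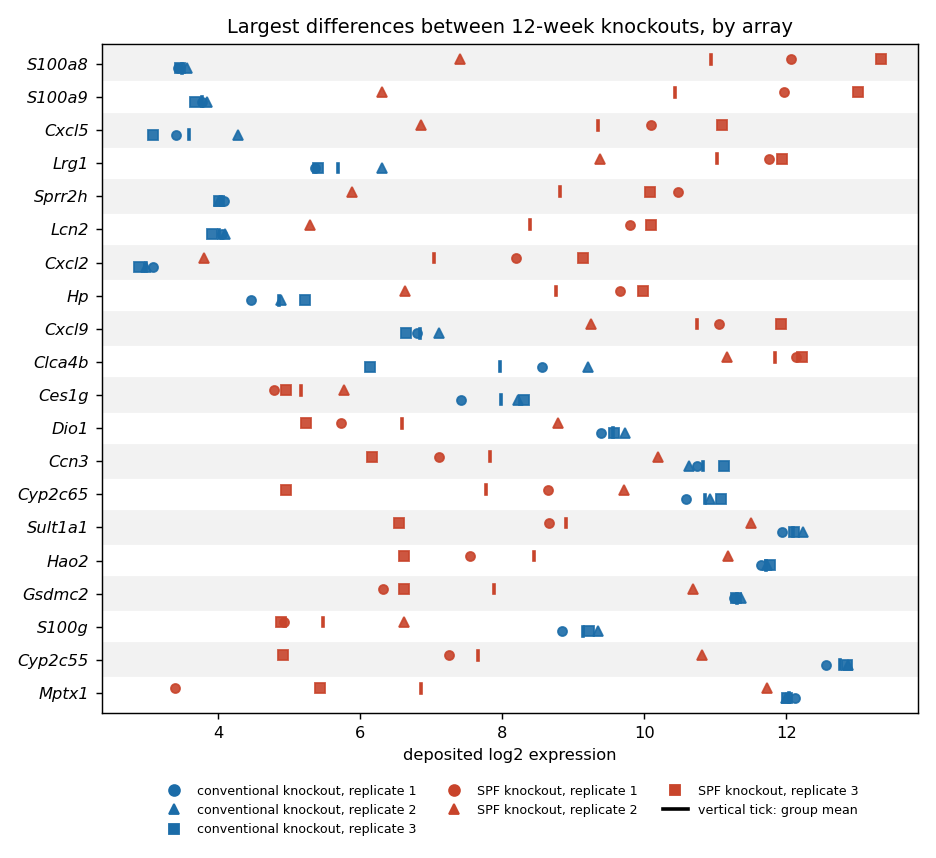
Deposited log2 expression (horizontal axis) of the 10 largest falls and the 10 largest rises from SPF to conventional knockouts at 12 weeks, 3 arrays a group, with 1 point per array and a vertical tick at each group mean. No gene's groups overlap, the conventional arrays lie close together in most genes, and SPF replicate 2 (triangle) is the SPF array nearest to them in each of the 20.

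In the list of calprotectin and neutrophil markers, 16 of 19 measured members were lower and 1 higher in conventional knockouts, with a median of -1.57 (without SPF replicate 1, 12 lower and 0 higher, without replicate 2, 17 and 1, and without replicate 3, 10 and 1). The iron-binding lipocalin Lcn2, made by neutrophils and epithelium, differed by -4.38 ± 0.82 (adjusted p = 0.00213), and Hp, whose product binds free haemoglobin, by -3.90 ± 0.70 (adjusted p = 0.00192). The formyl peptide receptor Fpr2 read 4.13, 3.69 and 3.65 in the conventional and 8.79, 4.49 and 9.21 in the SPF knockouts, so that SPF replicate 2 stayed closest to the conventional arrays, and differed by -3.67 ± 0.77 (adjusted p = 0.003). Lactoferrin, Ltf, differed by -2.34 ± 0.50, the collagenase Mmp8 by -1.56 ± 0.33, the integrin Itgam by -1.57 ± 0.31 and the chemokine receptor Cxcr2 by -0.35 ± 0.12, all called. Of the primary granule genes, Elane, neutrophil elastase, was the member called higher, by 0.32 ± 0.11, and myeloperoxidase, Mpo, differed by 0.09 ± 0.15 (adjusted p = 0.726). Calls were lost for Cxcr2 without SPF replicate 3 or conventional replicate 2 or 3, and Elane without SPF replicate 1 or conventional replicate 1, 2 or 3 (adjusted p from 0.068 to 0.266). The difference became 0.20 for Elane without SPF replicate 1, and -0.23 for Cxcr2 and -1.55 for Ltf without SPF replicate 3.

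In the list of neutrophil-drawing chemokines and related genes, 5 of 9 measured were lower and 0 higher, with a median of -1.02 (without SPF replicate 1, 5 lower and 0 higher, without replicate 2, 6 and 0, and without replicate 3, 3 and 0). Not all of its members act through Cxcr2. Cxcl5, an epithelial and stromal chemokine, read 3.41, 4.28 and 3.09 in the conventional and 10.10, 6.86 and 11.09 in the SPF knockouts and differed by -5.76 ± 0.87 (adjusted p = 0.00109). Its SPF arrays were spread widely, and the lowest of them still lay above every conventional array. Cxcl2 differed by -4.06 ± 0.85 (adjusted p = 0.003), Cxcl3 by -3.21 ± 0.82 and Cxcl1 by -2.32 ± 0.45. The granulocyte growth factor Csf3 had a difference of -1.02 ± 0.41 and missed the threshold (adjusted p = 0.075). The platelet chemokines Ppbp and Pf4 had differences of -0.08 ± 0.15 and 0.10 ± 0.19 and were not called. The threshold was missed for Cxcl3 without SPF replicate 3 (adjusted p = 0.0834). The difference then stood at -2.12 for Cxcl3 without SPF replicate 3.

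Among interferon gamma and Th1 genes the median was -1.61, and 21 of 27 measured members were lower in conventional knockouts and 0 higher (without SPF replicate 1, 21 lower and 0 higher, without replicate 2, 22 and 1, and without replicate 3, 19 and 0). Ifng, the cytokine itself, read 2.76, 2.72 and 2.71 in the conventional and 6.75, 3.86 and 7.41 in the SPF knockouts, the conventional arrays near the low end of the scale, and differed by -3.27 ± 0.69 (adjusted p = 0.00304). The chemokine Cxcl9, which draws Th1 cells through Cxcr3, read 6.79, 7.10 and 6.64 in the conventional and 11.05, 9.24 and 11.92 in the SPF knockouts. All SPF arrays were above all conventional ones, and the difference was -3.89 ± 0.69 (adjusted p = 0.00192). Cxcl10 differed by -3.44 ± 0.60 and Cxcl11 by -1.84 ± 0.46, whereas their receptor Cxcr3 (-0.28 ± 0.11, adjusted p = 0.0805) and the Th1 factor Tbx21 (-0.32 ± 0.15, adjusted p = 0.127) were not called. The interleukin 12 subunits Il12a and Il12b had differences of -0.13 ± 0.14 and 0.05 ± 0.13, neither called, while the receptor chain Il12rb1 was lower, at -0.76 ± 0.16. Leaving out single arrays ended the calls of Cxcl11 without SPF replicate 3 (adjusted p = 0.0682).

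GTPases that interferon gamma induces against intracellular microbes were lower in conventional knockouts. Iigp1 read 9.09, 9.15 and 9.34 in the conventional and 11.51, 11.73 and 12.08 in the SPF knockouts. In this gene SPF replicate 2 lay between the other SPF arrays, and the difference was -2.58 ± 0.48 (adjusted p = 0.00213). Igtp differed by -2.08 ± 0.37 (adjusted p = 0.00192), Irgm1 by -1.20 ± 0.21, Irgm2 by -1.25 ± 0.26, Gbp2 by -2.01 ± 0.39, Gbp3 by -1.78 ± 0.32 and Gbp6 by -2.45 ± 0.38, all called. Ido1, which breaks down tryptophan, read 8.02, 8.45 and 8.25 in the conventional and 11.20, 10.67 and 11.69 in the SPF knockouts and differed by -2.94 ± 0.56 (adjusted p = 0.00214). Ubd, a ubiquitin-like modifier, differed by -3.74 ± 0.63 and the feedback inhibitor Socs1 by -2.18 ± 0.41. Each of these calls held with any 1 of the 6 arrays left out of the full model. With only those 6 arrays fitted, Iigp1, Igtp and Ido1 kept the call and the others lost it.

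The upstream sequences of 4 of these called genes are shown because they hold the letters of elements through which interferons are known to act. They are the 250 bases before the gene start from RefSeq (build GRCm38.p6), printed 5' to 3' on the gene's strand, with motif matches in capitals. The motifs marked here were searched on both strands, with overlapping matches allowed. They were the interferon-stimulated response element, ISRE, written as GAAA, any 2 bases and GAAA, and the gamma-activated site, GAS, written TTCNNNGAA.
Cxcl10, chr5:92348890-92349139, minus strand: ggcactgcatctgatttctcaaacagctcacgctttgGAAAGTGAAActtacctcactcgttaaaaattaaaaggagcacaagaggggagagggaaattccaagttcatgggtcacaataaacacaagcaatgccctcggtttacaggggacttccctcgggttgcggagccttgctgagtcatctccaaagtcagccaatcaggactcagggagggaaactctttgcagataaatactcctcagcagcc
Irgm1, chr11:48871421-48871670, minus strand: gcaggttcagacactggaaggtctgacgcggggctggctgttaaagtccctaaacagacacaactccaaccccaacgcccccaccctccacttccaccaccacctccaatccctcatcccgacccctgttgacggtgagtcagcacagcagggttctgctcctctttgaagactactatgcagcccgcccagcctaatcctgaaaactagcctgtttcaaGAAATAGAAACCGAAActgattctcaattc
Igtp, chr11:58199306-58199555, plus strand: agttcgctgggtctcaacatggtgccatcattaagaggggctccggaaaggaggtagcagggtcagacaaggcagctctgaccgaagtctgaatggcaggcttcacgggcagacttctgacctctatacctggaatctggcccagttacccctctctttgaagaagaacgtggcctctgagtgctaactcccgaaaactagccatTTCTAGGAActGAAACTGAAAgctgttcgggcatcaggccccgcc
Gbp3, chr3:142559794-142560043, plus strand: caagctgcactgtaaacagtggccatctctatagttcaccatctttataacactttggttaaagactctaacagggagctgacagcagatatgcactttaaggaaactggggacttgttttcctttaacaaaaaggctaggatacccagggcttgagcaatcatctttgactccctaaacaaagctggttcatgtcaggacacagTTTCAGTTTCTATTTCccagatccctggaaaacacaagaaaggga
In Cxcl10 the match GAAAGTGAAA starts 213 bases before the gene start. Irgm1 holds 2 overlapping ISRE matches, 30 and 24 bases before it, and Gbp3 2 on the opposite strand, 45 and 39 bases before it. Igtp holds the GAS letters TTCTAGGAA at 45 bases and an ISRE match at 34 bases. Of all 27018 genes with an upstream sequence in the table, 936 held the ISRE letters (3.46%) and 2197 the GAS letters (8.13%). Among the 14365 tested genes with such a sequence the shares were 3.15% and 7.43%. Of the 55 members of the interferon gamma, type I interferon, immunoproteasome and MHC class II lists found in the table, 18 held ISRE letters (32.7%) and 13 GAS letters (23.6%). By list, ISRE letters were in 8 of 20 interferon gamma, 8 of 17 type I, 1 of 11 class I and 1 of 7 class II genes. GAS letters were in 7, 3, 2 and 1 of them, so the pooled shares do not describe each list. A match describes these letters and is neither a shown binding site nor a cause of the differences.

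Among genes known as targets of interferon alpha and beta, the type I interferon list, 5 of 23 measured were lower and 0 higher, and the median was -0.28 (without SPF replicate 1, 4 lower and 0 higher, without replicate 2, 5 and 1, and without replicate 3, 2 and 1). Calls in either direction made up 24.6% of all genes. The called ones were Ifit2 (-1.28 ± 0.37), the deconjugating protease Usp18 (-1.24 ± 0.43), the nucleic acid sensor Zbp1 (-1.23 ± 0.22), the tetherin Bst2 (-1.12 ± 0.24) and Trim30a (-0.91 ± 0.25). Others had positive differences without a call, such as Rsad2, which encodes viperin, at 0.80 ± 0.32 (adjusted p = 0.0709), Ifit1 at 0.64 ± 0.45 (adjusted p = 0.336) and the factor Irf7 at 0.57 ± 0.28 (adjusted p = 0.149). Mx1 had a difference of -0.30 ± 0.19 (adjusted p = 0.27). Among these, calls ended for Trim30a without SPF replicate 3, Ifit2 without SPF replicate 3 or conventional replicate 1, and Usp18 without SPF replicate 1 or 3 or conventional replicate 1, 2 or 3 (adjusted p from 0.0506 to 0.209). Differences moved to -0.54 for Trim30a without SPF replicate 3.

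Antigen processing for MHC class I was lower in conventional knockouts in 10 of 13 measured genes and higher in 0, with a median of -0.65 (without SPF replicate 1, 10 lower and 0 higher, without replicate 2, 10 and 0, and without replicate 3, 9 and 0). The activator of class I genes, Nlrc5, differed by -2.57 ± 0.39 (adjusted p = 0.00109). Tap1, one chain of the peptide transporter, read 7.86, 7.90 and 7.76 in the conventional and 9.68, 9.38 and 10.01 in the SPF knockouts and differed by -1.85 ± 0.29, and its partner Tap2 by -0.86 ± 0.14. The inducible proteasome subunits Psmb9, Psmb8 and Psmb10 differed by -1.48 ± 0.25, -1.33 ± 0.27 and -0.67 ± 0.15. The class I heavy chains H2-K1 and H2-D1 were called at the smaller differences of -0.41 ± 0.11 and -0.40 ± 0.09, and the light chain B2m was not called at -0.29 ± 0.13 (adjusted p = 0.102). With 1 array left out, calls ended for H2-K1 without SPF replicate 3 (adjusted p = 0.0535).

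For MHC class II, 6 of 10 genes were lower and 0 higher, with a median of -1.01 (without SPF replicate 1, 4 lower and 0 higher, without replicate 2, 8 and 0, and without replicate 3, 2 and 0). They were the transactivator Ciita (-1.55 ± 0.29), the peptide loader H2-DMa (-1.55 ± 0.32), the invariant chain Cd74 (-1.15 ± 0.37), the surface chains H2-Eb1 (-1.13 ± 0.30) and H2-Ab1 (-1.13 ± 0.32), and H2-Aa (-0.77 ± 0.28, adjusted p = 0.04996), which lay at the threshold. Cd74 read 11.48, 11.72 and 11.61 in the conventional and 12.83, 12.66 and 12.75 in the SPF knockouts, so that all 3 SPF arrays lay close together and above all conventional ones. The B cell class II gene H2-Ob had a difference of -0.90 ± 0.50 and was not called (adjusted p = 0.204). No longer called were H2-Aa without SPF replicate 1 or 3, H2-Eb1 and H2-Ab1 without SPF replicate 3, and Cd74 without SPF replicate 1 or 3 or conventional replicate 1, 2 or 3 (adjusted p from 0.0543 to 0.086 for H2-Eb1, H2-Ab1 and Cd74).

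Inflammatory cytokines were lower in conventional knockouts in 15 of 22 measured genes and higher in 0, with a median of -0.96 (without SPF replicate 1, 10 lower and 0 higher, without replicate 2, 15 and 1, and without replicate 3, 8 and 0). Il1b, which activates endothelium and draws neutrophils, read 5.08, 5.11 and 4.79 in the conventional and 9.88, 6.08 and 10.32 in the SPF knockouts and differed by -3.77 ± 0.72 (adjusted p = 0.00228). SPF replicate 2 lay near the conventional arrays in this gene. Il6, a driver of STAT3 signalling, differed by -2.66 ± 0.62, its relatives Il11 and Lif by -2.10 ± 0.31 and -1.78 ± 0.29, and the alarmin Il33 by -2.33 ± 0.57. Il17a, the cytokine of Th17 cells, read 3.84, 3.86 and 3.75 in the conventional and 5.85, 3.78 and 5.61 in the SPF knockouts and differed by -1.26 ± 0.35 (adjusted p = 0.0116), while Il23a, a subunit of interleukin 23, was not called at -0.13 ± 0.12 (adjusted p = 0.45). Tnf differed by -1.26 ± 0.25 (adjusted p = 0.00258). The Th2 cytokines Il4, Il5 and Il13 had differences of 0.03 ± 0.12, 0.01 ± 0.09 and -0.04 ± 0.13, none called. Left uncalled were Il33 without SPF replicate 3, and Il17a without SPF replicate 1 or 3 (adjusted p from 0.0674 to 0.0989). The log2 difference was -1.67 for Il6 without SPF replicate 1, and -1.91 for Il17a without SPF replicate 2, and -1.55 for Il33 without SPF replicate 3.

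Of the CC chemokines and their receptors, 8 of 21 were lower and 1 higher, with a median of -0.45 (without SPF replicate 1, 7 lower and 1 higher, without replicate 2, 13 and 2, and without replicate 3, 5 and 1). Those acting on monocytes were among them: Ccl2 at -2.31 ± 0.45, Ccl7 at -1.20 ± 0.32, Ccl8 at -2.12 ± 0.39 and the receptors Ccr1 at -2.11 ± 0.40 and Ccr2 at -1.82 ± 0.34. Ccl5, made by T and NK cells, differed by -2.30 ± 0.37. The member called higher was Ccl6, which read 11.98, 12.01 and 12.33 in the conventional and 10.45, 11.69 and 10.48 in the SPF knockouts and differed by 1.24 ± 0.27 (adjusted p = 0.00398). Ccl20, the ligand of Ccr6, had a difference of -0.46 ± 0.39 (adjusted p = 0.43). Calls did not hold for Ccl7 without SPF replicate 1 or 3 (adjusted p from 0.0656 to 0.108). Values shifted most to -0.80 for Ccl7 without SPF replicate 3.

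STAT3 targets and acute phase genes were lower in 12 of 20 measured members and higher in 2, with a median of -1.26 (without SPF replicate 1, 12 lower and 1 higher, without replicate 2, 14 and 3, and without replicate 3, 12 and 0). Lrg1, a secreted glycoprotein of the acute phase, read 5.36, 6.30 and 5.40 in the conventional and 11.75, 9.37 and 11.94 in the SPF knockouts. Each SPF array exceeded each conventional one, and the difference was -5.33 ± 0.66 (adjusted p = 0.000496). The feedback inhibitor Socs3 differed by -2.69 ± 0.45, the oncostatin M receptor Osmr by -1.64 ± 0.28, and the factors Cebpb and Bcl3 by -1.52 ± 0.28 and -1.53 ± 0.30. The serum amyloid genes split: Saa3 was lower at -3.11 ± 0.58 (adjusted p = 0.00213), Saa1 was called higher at 0.89 ± 0.32 (adjusted p = 0.0489), and Saa2 was not called at 0.73 ± 0.32. Saa1 and Saa2 are close copies, so the signal of one may include the other. Stat3 itself was not called (-0.30 ± 0.12, adjusted p = 0.058). Calls were lost for Saa1 without SPF replicate 1 or 3 or conventional replicate 1 or 2 (adjusted p from 0.125 to 0.323). The difference became 0.51 for Saa1 without SPF replicate 3.

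Of the NF-kB feedback and pattern recognition genes, 12 of 24 were lower and 0 higher, with a median of -0.43 (without SPF replicate 1, 10 lower and 0 higher, without replicate 2, 14 and 0, and without replicate 3, 7 and 0). The adhesion molecule Icam1 differed by -2.43 ± 0.49 (adjusted p = 0.00258), Tnfaip2 by -2.65 ± 0.49, the inhibitors Nfkbie and Nfkbia by -1.71 ± 0.39 and -0.79 ± 0.19, and the ubiquitin editor Tnfaip3 by -1.11 ± 0.24. For bacterial products, the endotoxin receptor genes Cd14 (-1.12 ± 0.22) and Tlr4 (-0.80 ± 0.16) and the adaptor Myd88 (-0.87 ± 0.16) were called. The flagellin receptor Tlr5 (0.22 ± 0.18, adjusted p = 0.407) and the lipopeptide receptor Tlr2 (-0.30 ± 0.29, adjusted p = 0.499) were not. The threshold was missed for Nfkbia without SPF replicate 3 (adjusted p = 0.0562).

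Enzymes that make oxygen and nitrogen radicals and lipid mediators gave 8 lower and 2 higher of 20 measured, with a median of -0.45 (without SPF replicate 1, 7 lower and 1 higher, without replicate 2, 10 and 3, and without replicate 3, 6 and 1). Inducible nitric oxide synthase, Nos2, read 4.40, 4.16 and 4.35 in the conventional and 7.28, 5.91 and 8.02 in the SPF knockouts and differed by -2.76 ± 0.45 (adjusted p = 0.00137). The phagocyte oxidase subunits Cybb and Ncf1 differed by -2.34 ± 0.45 and -1.28 ± 0.31, and the prostaglandin synthase Ptgs2 by -1.85 ± 0.42. Hpgd, which degrades prostaglandins, was higher in conventional knockouts by 2.01 ± 0.46 (adjusted p = 0.0046). Complement genes were lower in 8 of 15 and higher in 0, with a median of -0.62 (without SPF replicate 1, 8 lower and 0 higher, without replicate 2, 8 and 1, and without replicate 3, 2 and 0), among them C1qb at -1.25 ± 0.29 and Cfb at -0.62 ± 0.18. Leaving out single arrays ended the calls of Ncf1 and Hpgd without SPF replicate 3, and Cfb without SPF replicate 3 or conventional replicate 3 (adjusted p from 0.0505 to 0.144). The difference then stood at -0.38 for Cfb without SPF replicate 3.

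Antimicrobial genes of the epithelium went both ways, with 9 lower and 4 higher of 24 measured and a median of -0.79 (without SPF replicate 1, 5 lower and 2 higher, without replicate 2, 10 and 4, and without replicate 3, 6 and 0). The phospholipase Pla2g2a, which attacks bacterial membranes, read 5.68, 5.83 and 5.18 in the conventional and 9.01, 7.78 and 8.40 in the SPF knockouts and differed by -2.83 ± 0.35 (adjusted p = 0.000496). Duoxa2, the maturation factor of the epithelial peroxide generator, differed by -1.88 ± 0.34 and the protease inhibitor Slpi by -1.85 ± 0.34. The lectin Reg3g, known to be induced by gut bacteria, read 11.62, 12.09 and 11.99 in the conventional and 13.59, 13.39 and 12.27 in the SPF knockouts, and its difference of -1.18 ± 0.66 was not called (adjusted p = 0.207). Reg3b had a difference of -0.34 ± 0.36 (adjusted p = 0.54). Each of these calls held with any 1 of the 6 arrays left out of the full model. With only those 6 arrays fitted, Pla2g2a and Duoxa2 kept the call and Slpi lost it.

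Higher in conventional knockouts were the mucosal pentraxin Mptx1, the lectin Reg4 (2.74 ± 0.90), the ribonuclease Ang (1.00 ± 0.25) and the receptor Pigr, which carries IgA to the lumen (0.59 ± 0.17). Mptx1 (chromosome 1) read 12.12, 11.99 and 12.01 in the conventional and 3.39, 11.73 and 5.43 in the SPF knockouts. SPF replicate 2 lay just below the conventional arrays and SPF replicates 1 and 3 far below them, so the difference of 5.19 ± 1.38 (adjusted p = 0.0096) rests on those 2 arrays. The Paneth-like ribonuclease Ang4 had a difference of 2.06 ± 0.88 and was not called (adjusted p = 0.0907). Among these, calls ended for Ang and Pigr without SPF replicate 3, Mptx1 without SPF replicate 1 or 3, and Reg4 without SPF replicate 1 or 3 or conventional replicate 1 or 2 (adjusted p from 0.0649 to 0.174). Differences moved to 3.46 for Mptx1 without SPF replicate 1, and 0.28 for Pigr without SPF replicate 3.

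Matrix breakdown genes were lower in 12 of 17 measured members and higher in 1, with a median of -1.56 (without SPF replicate 1, 9 lower and 0 higher, without replicate 2, 12 and 1, and without replicate 3, 8 and 0). The stromelysins Mmp3 and Mmp10 differed by -3.86 ± 0.72 (adjusted p = 0.0021) and -3.57 ± 0.59, the collagenase Mmp13 by -3.32 ± 0.55, and matrilysin, Mmp7, by -2.79 ± 0.55. Their inhibitor Timp1 differed by -2.003 ± 0.46, whereas Timp2 was called higher at 0.58 ± 0.18. Collagen genes gave 7 higher and 2 lower of 21, with a median of 0.24 (without SPF replicate 1, 5 higher and 0 lower, without replicate 2, 7 and 4, and without replicate 3, 4 and 0). Fibrillar collagen genes Col1a1 and Col3a1 were not called (0.07 ± 0.25 and 0.27 ± 0.15), the microfibril gene Col6a1 was higher by 0.80 ± 0.17 and Col8a1 by 1.62 ± 0.37, and the crosslinking enzyme Lox was lower (-1.004 ± 0.36). With 1 array left out, calls ended for Timp2 without SPF replicate 1 or 3 or conventional replicate 2 or 3, and Lox without SPF replicate 1 or 3 or conventional replicate 1, 2 or 3 (adjusted p from 0.0666 to 0.276). The log2 difference was -1.56 for Lox without SPF replicate 2, and -0.64 for Lox without SPF replicate 3.

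Cell cycle and replication genes were lower in conventional knockouts in 22 of 27 measured members and higher in 0, with a median of -0.92 (without SPF replicate 1, 14 lower and 0 higher, without replicate 2, 23 and 0, and without replicate 3, 11 and 0). Rrm2, which makes deoxynucleotides, read 7.80, 7.32 and 7.40 in the conventional and 10.03, 8.51 and 10.55 in the SPF knockouts and differed by -2.19 ± 0.36 (adjusted p = 0.00145). The replication licensing genes Mcm3 and Cdc6 differed by -1.21 ± 0.24 and -1.33 ± 0.31, cyclin D1, Ccnd1, by -1.06 ± 0.21 and the mitotic kinase Aurka by -1.27 ± 0.28. Mki67, the source of the Ki-67 antigen, differed by -0.57 ± 0.15. Stem cell and Wnt target genes of the crypt gave 4 higher and 1 lower of 16 (median 0.23, and without SPF replicate 1, 1 higher and 1 lower, without replicate 2, 7 and 4, and without replicate 3, 2 and 0). The stem cell receptor Lgr5 was higher by 1.16 ± 0.20 (adjusted p = 0.00162) and the Wnt feedback gene Axin2 by 0.49 ± 0.14, while Olfm4 was not called (-0.31 ± 0.18). No longer called were Mki67 without SPF replicate 1 or 3, and Axin2 without SPF replicate 1 or 3 or conventional replicate 3 (adjusted p from 0.0523 to 0.104).

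Unfolded protein response and folding genes went both ways, with 8 lower and 3 higher of 23 and a median of -0.34 (without SPF replicate 1, 4 lower and 0 higher, without replicate 2, 11 and 3, and without replicate 3, 0 and 1). Lower were Creld2 (-1.27 ± 0.30), Manf (-0.79 ± 0.21), the chaperone Hspa5, known as BiP (-0.71 ± 0.18), and Hyou1 (-0.71 ± 0.17). Higher were Agr2 (0.37 ± 0.12) and Ern2 (0.64 ± 0.22), both of which goblet cells use to fold mucins, and the stress factor Ddit3 (0.41 ± 0.12). Left uncalled were Creld2, Hspa5 and Hyou1 without SPF replicate 3, Manf without SPF replicate 1 or 3 or conventional replicate 2, Ddit3 without SPF replicate 1 or conventional replicate 2 or 3, Agr2 without SPF replicate 1 or 3 or conventional replicate 1 or 3, and Ern2 without SPF replicate 1 or 3 or conventional replicate 1, 2 or 3 (adjusted p from 0.0505 to 0.263). Values shifted most to 0.39 for Ern2 without SPF replicate 3.

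Among immune cell markers, those of macrophages and monocytes were lower in 19 of 23 and higher in 0, with a median of -1.55 (without SPF replicate 1, 17 lower and 0 higher, without replicate 2, 19 and 0, and without replicate 3, 11 and 0). The lectin receptors Clec4e and Clec7a differed by -3.46 ± 0.77 and -2.37 ± 0.56, the Fc receptors Fcgr4 and Fcgr3 by -2.63 ± 0.40 and -1.83 ± 0.34, Cd68 by -1.23 ± 0.34 and the growth factor receptor Csf1r by -0.93 ± 0.24. Members not called included Adgre1, the F4/80 antigen, at -0.26 ± 0.17, the mannose receptor Mrc1 at -0.03 ± 0.24 and the scavenger receptor Cd163 at -0.49 ± 0.29. Dendritic cell markers were lower in 4 of 11 and higher in 0 (without SPF replicate 1, 2 lower and 0 higher, without replicate 2, 4 and 0, and without replicate 3, 1 and 1), with Cd86 at -1.27 ± 0.26 and Itgax at -1.16 ± 0.42, while the lineage markers Flt3 (-0.06 ± 0.14) and Xcr1 (0.17 ± 0.13) were not called. Calls did not hold for Clec7a and Csf1r without SPF replicate 3, Cd68 without SPF replicate 1 or 3 or conventional replicate 1, and Itgax without SPF replicate 1 or 3 or conventional replicate 1, 2 or 3 (adjusted p from 0.0528 to 0.32). The difference became -1.75 for Itgax without SPF replicate 2, and -0.59 for Csf1r and -0.67 for Itgax without SPF replicate 3.

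T cell markers were lower in 6 of 16 and higher in 0 (without SPF replicate 1, 5 lower and 0 higher, without replicate 2, 11 and 0, and without replicate 3, 3 and 0), among them Cd3g at -1.53 ± 0.33 and Cd3d at -1.28 ± 0.34, whereas Cd4 (-0.25 ± 0.19), Cd8a (-0.22 ± 0.14) and Cd3e (-0.15 ± 0.16) were not called. Cytotoxic lymphocyte markers gave 5 lower and 1 higher of 15 (without SPF replicate 1, 7 lower and 0 higher, without replicate 2, 4 and 1, and without replicate 3, 4 and 0). The granzyme Gzma read 5.78, 5.86 and 5.87 in the conventional and 7.96, 7.61 and 8.59 in the SPF knockouts and differed by -2.22 ± 0.38 (adjusted p = 0.00162), Gzmb by -1.90 ± 0.31, and perforin, Prf1, was not called (0.23 ± 0.13). Of the regulatory T cell and checkpoint genes 3 of 10 were lower and 0 higher (without SPF replicate 1, 2 lower and 0 higher, without replicate 2, 7 and 0, and without replicate 3, 2 and 0). Ctla4 was at -1.18 ± 0.26 and the checkpoint ligand Cd274 at -1.15 ± 0.25, while the defining factor Foxp3 was at -0.02 ± 0.13 (adjusted p = 0.948). Calls were lost for Cd3d without SPF replicate 3 (adjusted p = 0.0979). The difference then stood at -0.79 for Cd3d without SPF replicate 3.

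B cell and follicle markers gave 1 lower and 0 higher of 14 with a median of -0.89 (without SPF replicate 1, 0 lower and 0 higher, without replicate 2, 11 and 0, and without replicate 3, 0 and 0). The follicle chemokine Cxcl13 was the member called (-1.59 ± 0.53), and the B cell antigen Ms4a1 was at -1.12 ± 0.58 (adjusted p = 0.165). The mean of the list was 4.61 to 5.06 in the conventional arrays and 5.56, 4.76 and 6.42 in SPF replicates 1, 2 and 3. Since a colon sample may or may not hold a lymphoid follicle, this mean is given beside the lymphocyte genes, and its part in them was not tested. Plasma cell genes gave 3 lower and 0 higher of 10 (without SPF replicate 1, 2 lower and 0 higher, without replicate 2, 2 and 0, and without replicate 3, 1 and 0), with Ighm at -1.08 ± 0.39, Igha at -0.13 ± 0.24 (adjusted p = 0.743) and Jchain at 0.06 ± 0.30 (adjusted p = 0.909). Eosinophil and mast cell markers gave 0 lower and 1 higher of 15, the one called being Kit (1.64 ± 0.38), which pacemaker cells also express. The threshold was missed for Kit without SPF replicate 3, Cxcl13 without SPF replicate 1 or 3 or conventional replicate 1 or 2, and Ighm without SPF replicate 2 or 3 or conventional replicate 1 or 2 (adjusted p from 0.0546 to 0.243). Differences moved to -1.03 for Cxcl13 without SPF replicate 1, and -2.66 for Cxcl13 without SPF replicate 2.

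The called endothelial markers were adhesion molecules that leukocytes grip. They were lower in conventional knockouts, Icam1 as above, Vcam1 by -1.68 ± 0.34, Selp, P-selectin, by -1.50 ± 0.38 and Madcam1 by -0.56 ± 0.20. These were the 4 lower of 20 members, with 0 higher (without SPF replicate 1, 2 lower and 0 higher, without replicate 2, 6 and 2, and without replicate 3, 2 and 0). The lineage markers Pecam1 (0.09 ± 0.23, adjusted p = 0.835), Cdh5 (-0.27 ± 0.22, adjusted p = 0.422) and Kdr (-0.05 ± 0.13, adjusted p = 0.824) were not called. Fibroblast markers gave 2 higher and 2 lower of 16 (without SPF replicate 1, 0 higher and 0 lower, without replicate 2, 3 and 3, and without replicate 3, 1 and 0), with Pdgfra at 0.57 ± 0.16 and the podoplanin gene Pdpn at -0.53 ± 0.18. Both the endothelial and the fibroblast counts are near the shares of all genes, 13.6% lower and 11.1% higher. Leaving out single arrays ended the calls of Selp without SPF replicate 1 or 3, Pdgfra without SPF replicate 1 or conventional replicate 3, Pdpn without SPF replicate 1 or 3 or conventional replicate 1 or 2, and Madcam1 without SPF replicate 1 or 3 or conventional replicate 1, 2 or 3 (adjusted p from 0.0506 to 0.3). The log2 difference was -0.85 for Selp without SPF replicate 1, and -0.26 for Pdpn without SPF replicate 3.

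Towards conventional housing, the 10 largest differences among called genes whose arrays did not overlap were in Mptx1, Cyp2c55, S100g, Gsdmc2, Hao2, Sult1a1, Cyp2c65, Ccn3, Dio1 and Ces1g. These include the cytochrome P450 genes Cyp2c55 and Cyp2c65, the deiodinase Dio1 and the carboxylesterase Ces1g. Absorptive colonocyte markers were higher in 13 of 19 and lower in 0, with a median of 0.97 (without SPF replicate 1, 9 higher and 0 lower, without replicate 2, 15 and 0, and without replicate 3, 6 and 0). The water channel Aqp8 read 10.61, 11.20 and 10.71 in the conventional and 5.47, 10.83 and 6.92 in the SPF knockouts and differed by 3.10 ± 0.70 (adjusted p = 0.00442). SPF replicate 2 was again the SPF array nearest to the conventional ones. Alkaline phosphatase, Alpi, differed by 1.97 ± 0.64 and the transglutaminase Tgm3 by 3.33 ± 0.95, while the keratin genes Krt19 and Krt20 (0.04 ± 0.09 and 0.08 ± 0.20) and villin, Vil1 (0.18 ± 0.13), were not called. Among these, calls ended for Tgm3 without SPF replicate 1 or 3 or conventional replicate 2, and Alpi without SPF replicate 1 or 3 or conventional replicate 2 or 3 (adjusted p from 0.0517 to 0.248). Values shifted most to 1.96 for Aqp8 without SPF replicate 1, and 1.06 for Alpi without SPF replicate 3.

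Colonocyte transport genes were higher in 14 of 30 and lower in 1, with a median of 0.74 (without SPF replicate 1, 11 higher and 0 lower, without replicate 2, 17 and 1, and without replicate 3, 7 and 0). The chloride exchanger Slc26a3 differed by 1.15 ± 0.29, the carbonic anhydrases Car1 and Car4 by 1.30 ± 0.33 and 1.33 ± 0.37, the bicarbonate cotransporter Slc4a4 by 1.33 ± 0.32 and the chloride channel Cftr by 0.83 ± 0.25. Guca2a, the gene of guanylin, which drives fluid secretion, differed by 2.20 ± 0.45. The butyrate transporters differed in call, Slc16a1 being higher by 0.42 ± 0.13 (-0.012 with the mean of its probe sets) and Slc5a8 not called at 0.47 ± 0.20 (adjusted p = 0.0929). The bile acid exporter subunit Slc51b was the member called lower, at -0.82 ± 0.28 (adjusted p = 0.0366). With 1 array left out, calls ended for Slc26a3 and Slc4a4 without SPF replicate 3, Car4 without SPF replicate 1 or 3, Cftr without SPF replicate 3 or conventional replicate 2, Slc16a1 without SPF replicate 1 or 3 or conventional replicate 1 or 2, and Slc51b without SPF replicate 1 or 3 or conventional replicate 1, 2 or 3 (adjusted p from 0.0553 to 0.186). The difference became 0.62 for Car1, 0.39 for Cftr, 1.36 for Guca2a and 0.78 for Slc4a4 without SPF replicate 3.

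Xenobiotic metabolism had a median of 1.08, with 21 of 37 measured members higher and 0 lower (without SPF replicate 1, 18 higher and 0 lower, without replicate 2, 24 and 1, and without replicate 3, 12 and 0). The cytochrome P450 Cyp2c55 (chromosome 19) read 12.56, 12.87 and 12.85 in the conventional and 7.25, 10.82 and 4.92 in the SPF knockouts. The conventional arrays lay close together, and the SPF arrays spread widely below them. The difference was 5.10 ± 0.96 (adjusted p = 0.00213). The sulfotransferase Sult1a1 differed by 3.20 ± 0.73, Cyp2c65 by 3.09 ± 0.78, the glucuronosyltransferase Ugt2b5 by 2.39 ± 0.73 and the efflux pump Abcb1a by 2.60 ± 0.53. Of the sensors that switch on such genes, the pregnane X receptor Nr1i2 was higher by 0.52 ± 0.16, and the dioxin receptor Ahr (adjusted p = 1) and its target Cyp1a1 (adjusted p = 0.999) were not called. No longer called were Cyp2c65 without SPF replicate 3, Nr1i2 without SPF replicate 3 or conventional replicate 2, and Ugt2b5 without SPF replicate 3 or conventional replicate 2 or 3 (adjusted p from 0.0508 to 0.215). The difference then stood at 1.68 for Cyp2c65, 2.02 for Sult1a1 and 1.17 for Ugt2b5 without SPF replicate 3.

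Fatty acid oxidation and ketogenesis genes were higher in 16 of 25 and lower in 1, with a median of 0.66 (without SPF replicate 1, 12 higher and 0 lower, without replicate 2, 19 and 1, and without replicate 3, 6 and 0). The nuclear receptor Ppara, which switches on such genes, differed by 2.11 ± 0.50 (adjusted p = 0.00528) and its coactivator Ppargc1a by 1.74 ± 0.45. The entry enzyme Cpt1a differed by 0.66 ± 0.20, the dehydrogenase Acadm by 0.83 ± 0.17 and the peroxisomal thiolase Acaa1b by 2.53 ± 0.57. Of the respiratory chain and ATP synthase genes, 6 of 27 were higher and 0 lower, and the median was 0.12 (without SPF replicate 1, 2 higher and 0 lower, without replicate 2, 9 and 0, and without replicate 3, 1 and 0). Junction genes gave 4 higher and 0 lower of 19 (without SPF replicate 1, 1 higher and 0 lower, without replicate 2, 4 and 0, and without replicate 3, 1 and 0), with occludin, Ocln, at 0.84 ± 0.16 and Cldn23 at 0.99 ± 0.27, while the pore-forming Cldn2 was not called (-0.03 ± 0.22). For these last 2 lists the share of all genes called in either direction was 24.6%. Left uncalled were Ppara without SPF replicate 3, Ppargc1a and Cldn23 without SPF replicate 1 or 3, and Cpt1a without SPF replicate 3 or conventional replicate 3 (adjusted p from 0.0583 to 0.174). Differences moved to 0.41 for Cpt1a without SPF replicate 3.

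Goblet cell markers were higher in 12 of 19 and lower in 0, with a median of 0.56 (without SPF replicate 1, 6 higher and 0 lower, without replicate 2, 14 and 0, and without replicate 3, 2 and 0). The mucus protein Clca1 read 13.60, 13.60 and 13.79 in the conventional and 10.50, 13.07 and 10.42 in the SPF knockouts and differed by 2.33 ± 0.43 (adjusted p = 0.0021). The gel-forming mucin Muc2 differed by 0.76 ± 0.21, the mucus protein Fcgbp by 1.33 ± 0.35 and the lectin Zg16, which binds bacteria, by 0.60 ± 0.17. The goblet cell factor Spdef (0.10 ± 0.30, adjusted p = 0.846) and Retnlb, known to respond to microbes and Th2 cytokines (-0.47 ± 0.98, adjusted p = 0.778), were not called. Calls did not hold for Muc2, Fcgbp and Zg16 without SPF replicate 3 (adjusted p from 0.0926 to 0.13). The log2 difference was 0.85 for Fcgbp, 0.36 for Muc2 and 0.34 for Zg16 without SPF replicate 3.

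Enteroendocrine markers were higher in 11 of 19 and lower in 1, with a median of 0.93 (without SPF replicate 1, 5 higher and 1 lower, without replicate 2, 14 and 1, and without replicate 3, 4 and 1). The granule proteins Chga and Chgb differed by 1.95 ± 0.39 (adjusted p = 0.00256) and 2.00 ± 0.37, the hormone genes Insl5 and Gcg by 2.12 ± 0.68 and 1.37 ± 0.38, and Tph1, which makes serotonin, by 2.14 ± 0.45. Tac1, the substance P gene of enterochromaffin cells and neurons, was the member called lower, reading 8.79, 8.41 and 8.54 in the conventional and 10.75, 9.45 and 11.29 in the SPF knockouts (-1.92 ± 0.37, adjusted p = 0.00225). Tuft cell markers gave 2 higher and 1 lower of 11 (without SPF replicate 1, 2 higher and 1 lower, without replicate 2, 3 and 2, and without replicate 3, 1 and 1). That is near the shares of all genes, 11.1% higher and 13.6% lower. Dclk1 was higher by 1.47 ± 0.27 and Trpm5 by 0.75 ± 0.19, and the one lower, Alox5ap (-1.61 ± 0.33), is also a leukocyte gene. Calls were lost for Trpm5 without SPF replicate 3 or conventional replicate 3, Gcg without SPF replicate 1 or 3 or conventional replicate 3, and Insl5 without SPF replicate 1 or 3 or conventional replicate 1 or 2 (adjusted p from 0.0543 to 0.243). Values shifted most to 1.02 for Insl5 without SPF replicate 1.

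Smooth muscle markers were higher in conventional knockouts in 14 of 16 and lower in 0, with a median of 0.96 (without SPF replicate 1, 14 higher and 0 lower, without replicate 2, 15 and 0, and without replicate 3, 11 and 0). Smooth muscle myosin, Myh11, read 11.79, 11.89 and 12.04 in the conventional and 10.45, 11.36 and 9.76 in the SPF knockouts and differed by 1.38 ± 0.24 (adjusted p = 0.00181). Desmin, Des, differed by 0.88 ± 0.20, the myosin light chain Myl9 by 1.61 ± 0.31 and Acta2 by 0.82 ± 0.17, whereas the factor Myocd was not called (0.60 ± 0.22, adjusted p = 0.0502). Neuron, glia and pacemaker genes were higher in 7 of 17 and lower in 0, with a median of 0.41 (without SPF replicate 1, 3 higher and 0 lower, without replicate 2, 10 and 0, and without replicate 3, 1 and 0), among them the synaptic gene Snap25 at 1.18 ± 0.27, the pacemaker channel Ano1 at 1.06 ± 0.35 and the glial factor Sox10 at 0.48 ± 0.13. The mean of the smooth muscle list was 10.68 to 11.11 in the conventional arrays and 9.65, 10.59 and 9.37 in SPF replicates 1, 2 and 3. This mean moved with the groups, and the part of muscle content in the other lists was not tested. The threshold was missed for Sox10 without SPF replicate 3, and Ano1 without SPF replicate 1 or 3 or conventional replicate 1 or 2 (adjusted p from 0.0714 to 0.176). The difference became 1.60 for Ano1 without SPF replicate 2.

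Tissue that a dissected colon can carry along was also read. Pancreatic acinar markers gave 3 higher and 0 lower of 12 with a median of -0.39 (without SPF replicate 1, 1 higher and 0 lower, without replicate 2, 3 and 1, and without replicate 3, 1 and 0). Calls in either direction covered 24.6% of all genes. The called ones were syncollin, Sycn (3.47 ± 0.83), colipase, Clps (1.84 ± 0.47), and Cela1 (1.71 ± 0.48), while the defining enzymes Cpa1 (-0.22 ± 0.50, adjusted p = 0.796), Ctrb1 (-0.93 ± 0.59, adjusted p = 0.27) and Prss2 (-0.63 ± 0.45, adjusted p = 0.339) had negative differences without a call. The list mean was 5.43 to 5.67 in the conventional arrays and 4.66, 5.25 and 6.17 in SPF replicates 1, 2 and 3. Adipocyte markers gave 0 higher and 0 lower of 9, with Adipoq at -1.64 ± 1.22 (adjusted p = 0.362), and skeletal muscle markers 2 higher and 0 lower of 12. None of the 3 erythroid genes was called. Leaving out single arrays ended the calls of Sycn without SPF replicate 3, Clps without SPF replicate 1, and Cela1 without SPF replicate 1 or 3 (adjusted p from 0.0586 to 0.121).

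Over all genes 24.6% were called, 13.6% lower and 11.1% higher, and the list counts of this paragraph were not tested against these shares. Among genes near Il10 on chromosome 1, where a knockout can carry sequence of the strain in which it was made, 8 of 31 were lower and 1 higher, with a median of -0.12 in this comparison of 2 knockout groups (without SPF replicate 1, 3 lower and 1 higher, without replicate 2, 11 and 2, and without replicate 3, 2 and 0). Besides Il10 these included Rassf5 (-1.40 ± 0.33), a leukocyte gene, and Nucks1 (-0.37 ± 0.12), and Pigr was the one higher. Clock genes gave 3 higher and 2 lower of 18 (without SPF replicate 1, 1 higher and 1 lower, without replicate 2, 4 and 2, and without replicate 3, 2 and 1). Per3 was higher by 0.89 ± 0.31 and Hlf by 1.06 ± 0.37, and Nfil3, which opposes Dbp and its relatives, was lower (-1.13 ± 0.24, adjusted p = 0.00332). The output factor Dbp was at 1.63 ± 0.67 (adjusted p = 0.0785) and the core gene Arntl at 0.54 ± 0.33 (adjusted p = 0.259), neither called. In the 250 bases before the gene start, the E-box letters CACGTG stood in 5 of 16 clock genes (31.2%), beside 8.74% of tested genes. What these letters do in these samples was not tested. No time of day of sampling was found in the labels. Immediate early genes gave 2 higher and 4 lower of 20 (without SPF replicate 1, 1 higher and 1 lower, without replicate 2, 3 and 6, and without replicate 3, 1 and 1), with Egr2 at -1.62 ± 0.45 and Myc at -0.73 ± 0.20 called, and Fos (-0.09 ± 0.20) and Egr1 (-0.16 ± 0.36) not called. Among these, calls ended for Rassf5 without SPF replicate 3, Egr2 without SPF replicate 1 or 3, Myc without SPF replicate 1 or conventional replicate 1, and Nucks1, Per3 and Hlf without SPF replicate 1 or 3 or conventional replicate 2 or 3 (adjusted p from 0.0555 to 0.224). The difference then stood at -0.57 for Nucks1 without SPF replicate 2, and -0.24 for Nucks1 without SPF replicate 3.

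The position of SPF replicate 2 differed by gene list. In the called members of the MHC class II list it lay a median of 95.2% of the way from the conventional to the SPF mean, close to the other SPF arrays. The medians were 79.9% for the immunoproteasome and class I genes, 77.3% for type I interferon genes, 76.6% for interferon gamma genes and 70.4% for cytotoxic lymphocytes. It lay in the middle for STAT3 and acute phase genes at 47.2% and for the cell cycle at 42.5%. For calprotectin and neutrophil markers it was 18%, for inflammatory cytokines 18.9%, for matrix breakdown 19.6%, for goblet cells 24.9% and for smooth muscle 26.4%. In this sample interferon-induced and antigen presentation genes read nearer to the mean of its group, while neutrophil, matrix, goblet and muscle genes read nearer to the conventional knockouts. It was still the SPF array nearest to the conventional mean in 9 of 10 called class I and 15 of 21 interferon gamma genes. For class II and type I interferon genes this held in 3 of 6 and 2 of 5. The SPF mean includes this array. The percentages are positions of 1 array in genes chosen for their group difference, and no test was made of them.

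**Figure D3:**
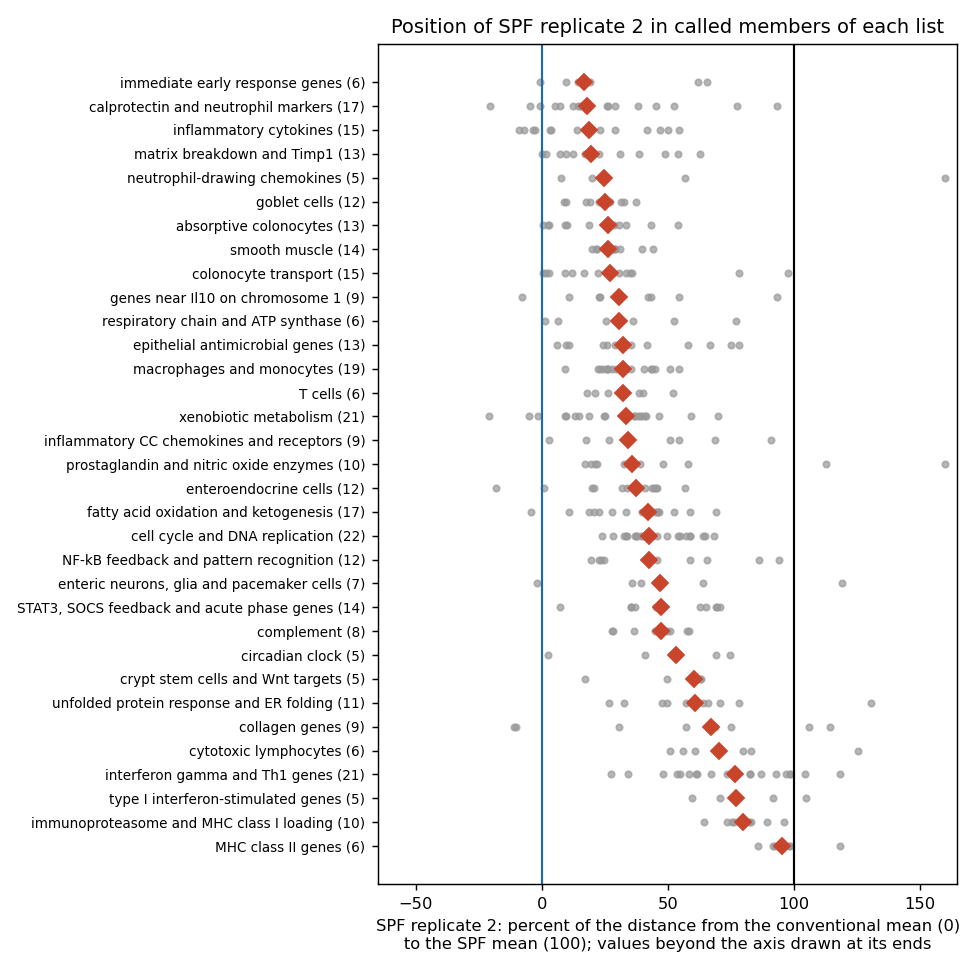
Position of SPF knockout replicate 2 in the called members of each list with at least 5 of them, in percent of the distance from the conventional mean (0) to the SPF mean (100), with 1 grey point per gene and a diamond at the median, and points beyond the axis drawn at its ends. The number of called members stands in brackets. The medians run from 16.8% for immediate early genes to 95.2% for MHC class II genes.

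Of the 20 genes called with only the 6 arrays of the comparison, 19 were lower in conventional knockouts. Interferon-induced and antigen presentation genes among them were Iigp1, Igtp, Ido1, Batf2 (-1.48 ± 0.29), Nlrc5, Tap1, Psmb9, Cd74, H2-DMa, H2-Ab1 and the cytotoxic gene Gzma. Epithelial genes among them were Pla2g2a, Duoxa2 and Ptk6 (-1.96 ± 0.28), a kinase of differentiating epithelium. Trim15, which is outside the lists, read 7.03, 7.08 and 6.81 in the conventional and 9.81, 9.34 and 10.05 in the SPF knockouts, a difference of -2.76 ± 0.41. Gm4951, a predicted interferon-inducible GTPase, read 5.25, 5.43 and 5.44 in the conventional and 8.41, 7.86 and 9.03 in the SPF knockouts, a difference of -3.06 ± 0.48. The transferrin receptor Tfrc differed by -1.16 ± 0.28, Ak4 by -1.62 ± 0.32 and Ift172 by -1.02 ± 0.18. The gene higher in conventional knockouts was Pbld1, which read 5.81, 6.15 and 6.41 in the conventional and 4.37, 4.75 and 4.43 in the SPF knockouts, a difference of 1.61 ± 0.23. Those outside the lists were chosen after their values were seen. In the model of all 27 arrays, Cd74 lost its call without SPF replicate 1 or 3 or conventional replicate 1, 2 or 3 and H2-Ab1 without SPF replicate 3 (adjusted p from 0.0543 to 0.086), and the other 18 were called with any 1 of the 6 arrays left out.

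The 12-week wild types, also in conventional housing, place both groups. The 3 comparisons share arrays, so their values are set side by side only. Against wild types, conventional knockouts had 82 called genes (0.451%), 48 higher (0.264%) and 34 lower (0.187%), and SPF knockouts 6329 (34.8%), 3305 higher (18.2%) and 3024 lower (16.6%), with genotype and housing changing together in the latter. The count of 82 was 12, 13 and 14 without conventional replicate 1, 2 or 3, and 11 without wild-type replicate 2. S100a8 averaged 3.58 in wild types, 3.49 in conventional and 10.94 in SPF knockouts, so that the conventional mean lay near that of the wild types. Myh11 averaged 12.03, 11.91 and 10.52, and Cyp2c55 13.17, 12.76 and 7.66, in the same order of groups.

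Some antigen presentation and interferon-induced genes read at 3 levels in these arrays. Iigp1 read 7.11, 6.79 and 6.23 in wild types, below every conventional array, with conventional knockouts above wild types by 2.48 ± 0.48 (adjusted p = 0.0312) and SPF knockouts by 5.07 ± 0.48 (adjusted p = 1.23e-06). Cd74 read 9.71, 8.75 and 9.71 in wild types, and conventional knockouts were higher by 2.21 ± 0.37 (adjusted p = 0.00826) and SPF knockouts by 3.36 ± 0.37. Tap1, Psmb9 and Zbp1 were higher in conventional knockouts than in wild types by 1.61 ± 0.29, 1.22 ± 0.25 and 1.34 ± 0.22, all called. Of the immunoproteasome and class I list 8 of 13 and of the class II list 4 of 10 were called higher in conventional knockouts than in wild types, as were 3 of 27 interferon gamma and 1 of 23 type I interferon genes, while 0 of 19 neutrophil, 0 of 22 cytokine and 0 of 23 macrophage genes were. These counts rest on all arrays of both groups: without conventional replicate 1, 2 or 3 they were 1, 0 and 1 of the class I list, 1, 0 and 1 of the class II list, 0, 0 and 0 of the interferon gamma list and 1, 0 and 1 of the type I list. Without wild-type replicate 2 they were 1, 0, 0 and 1. Reg3g read 9.00, 8.37 and 8.67 in wild types and was higher by 3.22 ± 0.66 in conventional knockouts (adjusted p = 0.0365) and by 4.40 ± 0.66 in SPF knockouts. Calls against wild types ended for Iigp1, Tap1, Psmb9 and Reg3g without any 1 conventional replicate or without wild-type replicate 2, for Cd74 without conventional replicate 2 or wild-type replicate 2, and for Zbp1 without conventional replicate 2 (adjusted p from 0.0537 to 0.236).

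**Figure D4:**
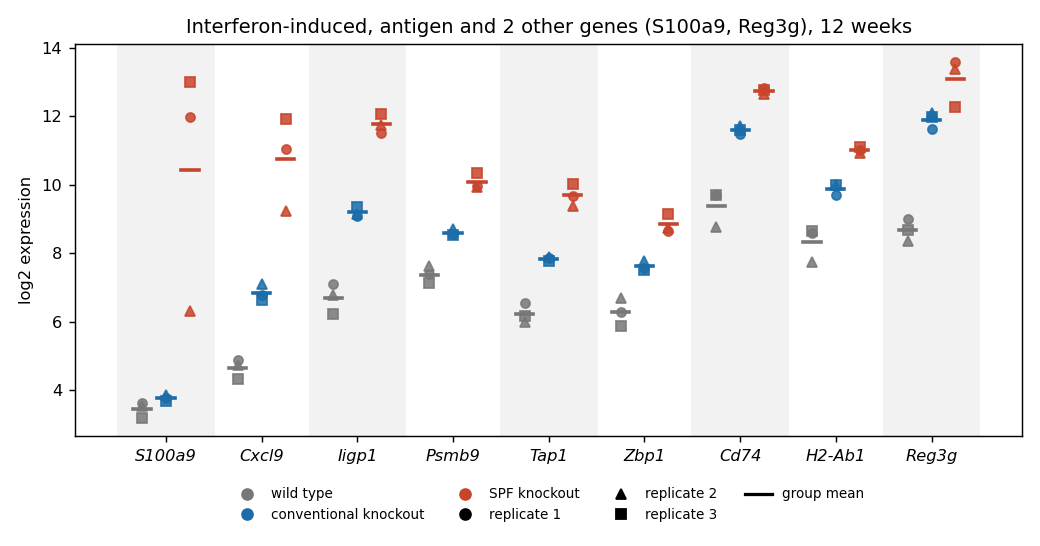
Log2 expression of 9 genes in the 12-week wild types, conventional knockouts and SPF knockouts, 3 arrays a group, with 1 point per array and a horizontal line at each group mean. S100a9 in conventional knockouts lies near the wild types, Iigp1, Psmb9, Tap1, Zbp1, Cd74 and H2-Ab1 lie at 3 separate levels, and in Reg3g both knockouts lie above the wild types.

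At the younger ages fewer genes were called between the housings. At 9 weeks limma called 0 genes between conventional and SPF knockouts (0%), with 1468 at an unadjusted p under 0.05, 968 of them higher in conventional knockouts and 500 lower. Calls at 9 weeks numbered 185 without 12-week SPF replicate 2 and 23 without 12-week SPF replicate 3, arrays that enter only through the shared spread, and 3681 with array weights. At 7 weeks 49 genes were called (0.269%), 28 higher (0.154%) and 21 lower (0.115%). Most of the largest were clock genes: Dbp was at -5.08 ± 0.67 (adjusted p = 0.000327), Nr1d1 at -3.07 ± 0.41, Arntl at 2.27 ± 0.33 and Nfil3 at 2.17 ± 0.24. Of these 49, 9 were also called at 12 weeks (18.4%, beside 24.6% of all genes), all with the opposite sign.

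The difference between the housings changed from 9 to 12 weeks in 3387 genes (18.6%), 1443 upward and 1944 downward for conventional minus SPF. Of them 2944 were also called at 12 weeks with the same sign, a count that shares the 12-week arrays. Without SPF replicate 1, 2 or 3 the count was 1862, 5494 and 1571. S100a8 read 10.55, 11.08 and 9.14 in the 9-week conventional and 3.84, 4.63 and 9.66 in the 9-week SPF knockouts, and its difference of 4.21 ± 1.12 was not called (adjusted p = 0.194). From 9 to 12 weeks that difference changed by -11.66 ± 1.58 (adjusted p = 0.000552), as the conventional knockouts went from a mean of 10.26 to 3.49 and the SPF knockouts from 6.04 to 10.94. Lrg1 averaged 9.92 and 5.69 in conventional knockouts at 9 and 12 weeks, and 8.80 and 11.02 in SPF knockouts, a change of -6.46 ± 0.93 (adjusted p = 0.000586). Iigp1 averaged 11.85 and 9.19 against 10.85 and 11.77, a change of -3.58 ± 0.68. Each age comes from other samples, so these are group levels and not courses of single animals.

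Against 7 weeks the difference had changed in 1701 genes (9.35%), 616 upward (3.39%) and 1085 downward (5.96%), and 1554 of them were called at 12 weeks with the same sign. This count was 327, 4521 and 177 without SPF replicate 1, 2 or 3, and 1014, 358 and 624 without conventional replicate 1, 2 or 3. By list, the change from 9 to 12 weeks was downward in 23 of 27 interferon gamma genes, 16 of 19 neutrophil genes and 20 of 23 macrophage genes. It was upward in 20 of 37 xenobiotic, 18 of 30 transport and 12 of 16 smooth muscle genes, beside 10.7% downward and 7.93% upward among all genes. Myh11 averaged 11.39 at 9 and 11.91 at 12 weeks in conventional knockouts, and 11.49 and 10.52 in SPF knockouts.

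**Figure D5:**
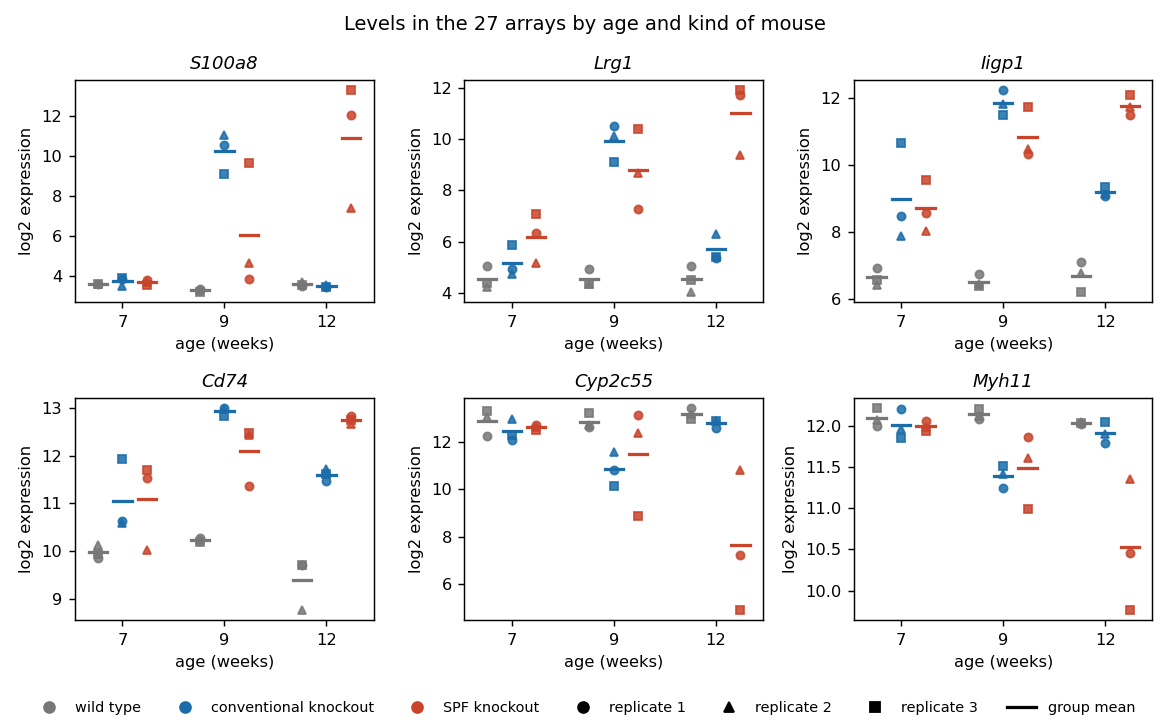
Log2 expression of 6 genes in all 27 arrays by age in weeks, with 1 point per array and a line at each mean of 3 arrays, for wild types, conventional knockouts and SPF knockouts. In S100a8 and Lrg1 the conventional knockouts are high at 9 and low at 12 weeks while SPF replicates 1 and 3 are highest at 12 weeks, and in Cyp2c55 and Myh11 SPF replicates 1 and 3 are lowest at 12 weeks.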

How the data were processed

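RNA of full-thickness colon was read on 27 arrays in 9 groups of 3, each group a genotype and housing at 1 age. The deposited log2 values are 1 per probe set and array, normalized by the authors with affyPLM per the series' design text. Its version, background step and probe set summary are not stated there. The log2 scale was read from the values. A rat array is named in the design text, but a mouse array holds these probe sets. Arrays carry no read depth, so the number of arrays limits the precision, and no scanner files were used here. Nothing in the labels says whether the 3 samples of a group are separate animals, so p-values measure the spread between these samples.

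Of 45101 probe sets, 64 control sets were left out, 9160 had no and 932 several gene symbols in the platform annotation, and 34945 had 1. These gave 18193 genes, of which 9010 had over 1 probe set and were represented by the one with the highest mean over all arrays. One limma model (3.58.1, R 4.3.3) of the 9 group means gave each contrast with eBayes, and p-values were adjusted over all genes by Benjamini-Hochberg, with calls under 0.05. The fit was tested on simulated data with known changes. It called 92% of genes changed by 1 log2 unit, 97% of those changed by 2 and 9 unchanged genes. Each simulated gene had the same spread in all groups, so the wider spread of the 12-week SPF knockouts was not covered. Tables were made with pandas 2.3.3 and NumPy 2.4.6 in Python 3.11.15, and plots with matplotlib 3.10.9.

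The members, gene lists and tests were chosen with earlier results of these data known. The 46 lists, 24 of pathways and 22 of cell markers, hold 919 entries, of which 845 were measured. Genes were named by a rule: the 10 largest differences each way among called genes without overlap, up to 4 called members per list with the smallest adjusted p, and 14 genes whatever their result (Il10, S100a8, S100a9, Cxcl9, Reg3g, Iigp1, Nos2, Il1b, Tnf, Ifng, Lcn2, Mptx1, Dbp and Arntl). Other list members, called or not, were named after their values were seen, to show the range within a list. Upstream sequences came from RefSeq's GRCm38.p6 table. Alternatives were other normalizations, a filter on dim genes, other probe set rules, an intensity trend, weights, fewer arrays, each array left out, a replicate block and a minimum difference. Those without wild-type replicate 2 and with 1 weight per group were chosen after seeing the data.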

Additional observations from a re-analysis of the deposited data

Results flagged for a closer look

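The difference between conventional and SPF knockouts was not the same at each age. Tested as an interaction in limma, it changed from 9 to 12 weeks in 3387 genes and from 7 to 12 weeks in 1701. The change from 9 to 12 weeks, as the log2 difference at 12 weeks minus that at 9 weeks, was -11.66 for S100a8 and -11.30 for S100a9, the calprotectin subunits. It was -8.56 for the neutrophil chemokine Cxcl5, -7.55 for Sprr2h, -7.23 for the lipocalin Lcn2 and -6.46 for the acute phase gene Lrg1.

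Probe sets that no single gene symbol names were left out of the gene counts. Among 10092 of them, 575 were called between the housings at 12 weeks (5.70%), 259 higher and 316 lower in conventional knockouts.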

How the results depend on the processing

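The 12-week count of 4480 became 6997 with array weights and 3135 with 1 weight per group. The array weight of SPF replicate 2 was 0.193, and the group weight of the 12-week SPF knockouts was 0.461. The same count was 20 with only the 6 arrays compared, 586 with the 9 arrays of that age, 938 with at least 1 log2 unit, and 1357 to 6246 with 1 array left out. Of calls shared with array weights 4368 of 4368 kept their direction, and with a gene's probe sets averaged 3760 of 3762 did. At 9 weeks, 0 became 1 after median centring, 3681 with array weights and 0 to 185 with 1 array left out. At 7 weeks, 49 became 253 with array weights, 184 with 1 weight per group, 81 with the 6 arrays compared, 74 with the 9 of that age and 24 with at least 1 log2 unit. For the change from 9 to 12 weeks, 3387 became 7903 with array weights, 26 with only the arrays of its groups, 1478 with at least 1 log2 unit and 1571 to 5494 with 1 array left out. For the change from 7 weeks, 1701 became 5685, 538, 822 and 177 to 4521 under the same 4 alternatives. Against wild types, the 82 of the conventional knockouts became 34 with the 6 arrays compared, 10 with the 9 of that age, 16 with 1 weight per group, 25 with at least 1 log2 unit, 151 over all probe sets and 11 to 122 with 1 array left out. The 6329 of the SPF knockouts became 1321 with the 6 arrays compared, 3761 with the 9 of that age, 3699 with 1 weight per group and 1446 with at least 1 log2 unit. The cause was not tested.

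Samples of different groups share replicate numbers, and correlations of same-numbered deviations at 12 weeks ran from -0.372 to 0.232; the numbers were not taken to pair samples. With the replicate number within age as a block, 4125 genes were called at 12 weeks, 3957 of them shared, 896 for the change from 7 weeks and 30 for conventional knockouts against wild types.

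Of 207 named called genes, H2-Aa not counted, 78 lost the call in at least 1 leave-out of the 6 arrays, 188 with only those 6 arrays fitted and 111 with the 9 of that age, and 18 kept it in every alternative run. The sign of the 12-week difference changed in 26 named genes, of which Slc16a1 was called. The difference was, after a new quantile normalization 0.059 for Ahr, -0.016 for Cyp1a1, -0.0029 for Il5 and 0.029 for Mrc1, after median centring -0.011 for Cyp1a1 and -0.0024 for Il5, with array weights 0.11 for Ahr, -0.037 for Cyp1a1, -0.085 for Il12b, 0.21 for Mrc1, -0.14 for Pecam1 and -0.048 for Spdef, and with a gene's probe sets averaged 0.28 for Cldn2, -0.12 for Col1a1, -0.16 for Il12b, -0.027 for Prf1 and -0.012 for Slc16a1. With 1 array left out the range was Ahr -0.081 to 0.085, Ccl20 -0.83 to 0.24, Cd4 -0.53 to 0.024, Cdh5 -0.67 to 0.039, Cldn2 -0.42 to 0.25, Col1a1 -0.015 to 0.15, Cpa1 -0.48 to 0.25, Cyp1a1 -0.076 to 0.086, Egr1 -0.59 to 0.19, Flt3 -0.16 to 0.041, Fos -0.26 to 0.0095, Foxp3 -0.22 to 0.14, Igha -0.32 to 0.11, Il12b -0.063 to 0.14, Il13 -0.14 to 0.044, Il4 -0.062 to 0.13, Il5 -0.041 to 0.11, Jchain -0.17 to 0.34, Kdr -0.17 to 0.016, Krt20 -0.094 to 0.31, Mrc1 -0.17 to 0.078, Pecam1 -0.10 to 0.29, Pf4 -0.027 to 0.19 and Spdef -0.22 to 0.34.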

Other observations

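Several of the largest differences lay outside the gene lists. Among genes higher in the SPF knockouts at 12 weeks, Sprr2h, a small proline-rich protein gene of the kind used in the cornified envelope of squamous epithelium, read 4.08, 4.01 and 4.01 in the conventional and 10.48, 5.88 and 10.08 in the SPF knockouts. Its difference was -4.78 ± 0.86 (limma, adjusted p = 0.00198), with SPF replicate 2 again the nearest to the conventional arrays. Clca4b, of the family of the mucus protein Clca1, read 8.56, 9.21 and 6.14 in the conventional and 12.13, 11.17 and 12.22 in the SPF knockouts, a difference of -3.87 ± 0.83 (adjusted p = 0.00342), opposite in sign to that of Clca1.

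Among genes higher in conventional knockouts, S100g, which encodes the calcium-binding protein calbindin-D9k, read 8.85, 9.35 and 9.22 in the conventional and 4.93, 6.62 and 4.89 in the SPF knockouts and differed by 3.66 ± 0.81 (adjusted p = 0.00402). Gsdmc2, a gasdermin gene, read 11.26, 11.36 and 11.29 in the conventional and 6.32, 10.69 and 6.62 in the SPF knockouts and differed by 3.43 ± 0.67. In both genes the conventional arrays lay close together and SPF replicates 1 and 3 lay far below them. Dio1, a deiodinase of thyroid hormone, differed by 2.98 ± 0.59, the peroxisomal hydroxyacid oxidase Hao2 by 3.26 ± 0.65, the carboxylesterase Ces1g by 2.81 ± 0.49 and the matricellular gene Ccn3 by 3.01 ± 0.60, all called over all genes. Each of these calls held with any 1 of the 6 arrays left out.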
